A study of Mus musculus with 24 samples.

Results

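Bone of transgenic and wild-type female mice was compared at 12 months of age, on 6 of the 24 Affymetrix Mouse Gene 2.1 ST arrays of the series. The 6 arrays were those titled as transgenic or wild type at 12 months, 3 in each group. The transgenic mice, labelled HSD2OB-tg, carry 11-beta hydroxysteroid dehydrogenase type 2 targeted to osteoblasts, and the wild-type mice carry no transgene. In the published line the transgene is driven by a fragment of the collagen type I alpha 1 promoter, which is active in mature osteoblasts and osteocytes. All mice ate standard chow, and RNA was taken from tibia and femur, with marrow flushed from the tibia. The remaining 18 arrays hold the same genotypes at 3, 6 and 18 months and entered the fit, where they helped to estimate the spread. The series' title names skeletal glucocorticoid signalling, aging, leptin resistance and obesity.

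Glucocorticoids act on a cell by binding the glucocorticoid receptor, which then moves to the nucleus and binds DNA beside its target genes. The type 2 dehydrogenase turns the active hormone into an inactive form before it meets the receptor, while the type 1 enzyme does the reverse. In bone, glucocorticoid is known to act on osteoblasts, which lay down matrix, on osteocytes, which are embedded in it, and through them on osteoclasts, which resorb it.

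The source name of each sample begins with 1 of 3 code prefixes, and the labels leave their meaning unstated. At 12 months all 3 wild-type arrays and transgenic replicate 1 carry the prefix HEN679, and transgenic replicates 2 and 3 carry HEN513. Each difference is therefore given as transgenic minus wild type on the log2 scale, first with a term for the prefix and then without it. With the term, the difference at 12 months leans on transgenic replicate 1 and on the 18-month arrays, which hold both prefixes in both genotypes. The prefix itself was related to expression, since 34 of 22180 genes differed between prefixes at an adjusted p under 0.05 by limma's moderated F-test. The 6 arrays had medians of 3.56 to 3.63 and correlated with each other at 0.977 to 0.988 over all genes. The study's design text calls the 3 arrays of a group biological triplicates, and whether each is 1 animal is not given in the labels.

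Hsd11b2, the gene of the transgene's enzyme, was measured at 3.39, 3.69 and 3.38 in wild-type replicates 1 to 3 and at 4.40, 4.59 and 4.46 in transgenic replicates 1 to 3. All 3 transgenic arrays lay above all 3 wild-type arrays. Wild-type replicates 1 and 3 were below the array medians, and no detection call was available. The difference was 0.99 with the prefix term, a 1.98-fold higher signal with a 95% interval of 0.45 to 1.52 on the log2 scale. Without the term it was 1.00, with an interval of 0.56 to 1.44. Leaving out any 1 of the 6 arrays kept it between 0.94 and 1.09 with the term, and within HEN679, where only transgenic replicate 1 remains, it was 0.92. Over all 22180 genes it did not pass, with limma adjusted p of 0.819 with the term and 0.709 without.

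**Figure D1:**
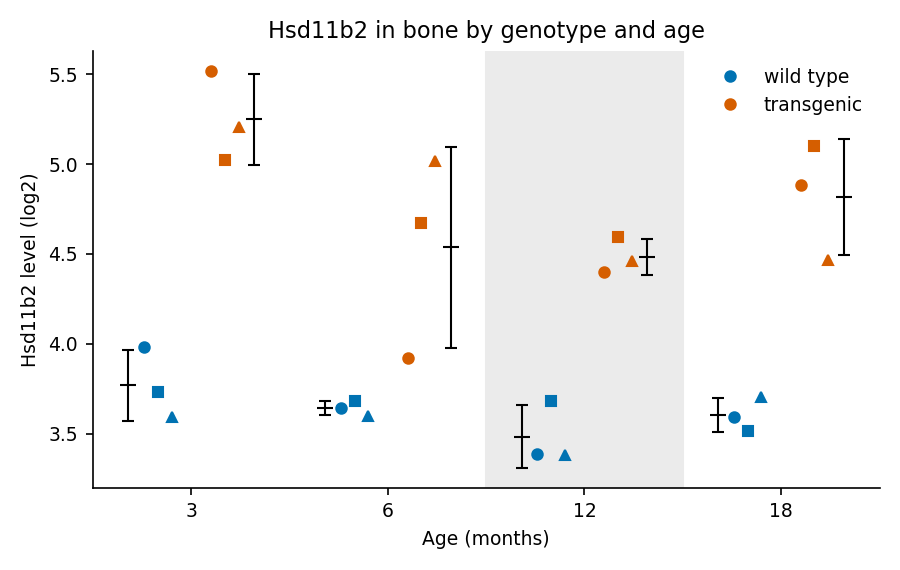
Hsd11b2 level (log2) on all 24 arrays by age in months, with circles, squares and triangles for replicates 1, 2 and 3, and bars for the mean and SD of 3 arrays. At 12 months (shaded) the transgenic arrays lie between 4.40 and 4.59 and the wild-type arrays between 3.38 and 3.69.

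Across ages, the wild-type mean of Hsd11b2 ran from 3.48 ± 0.17 (SD, n = 3) at 12 months to 3.77 ± 0.20 at 3 months. The transgenic mean was 5.25 ± 0.25 at 3 months and 4.54 ± 0.56 at 6 months. It was 4.48 ± 0.10 in the 12-month arrays and 4.82 ± 0.32 in the 18-month arrays. The 12-month transgenic arrays had the lowest mean of the transgenic groups, close to that at 6 months. The genotype difference at 12 months minus the mean of those at 3, 6 and 18 months was -0.22 with the term and -0.20 without, which by limma did not pass (adjusted p = 0.932 with the term).

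No gene was called between the genotypes at 12 months, where called means a limma adjusted p under 0.05 over 22180 genes. This held with the prefix term (0 called, 0% of genes, lowest adjusted p 0.711) and without it (0 called, lowest adjusted p 0.709). At an unadjusted p under 0.05 there were 1264 genes with the term, 5.70% of all, and 844 without, 3.81% of all. With the term 2.74% of genes were higher and 2.96% lower at that threshold, and without it 1.66% were higher and 2.15% lower. Both fits gave an unadjusted p under 0.05 with the same sign for 205 higher genes (0.924%) and 237 lower genes (1.07%). The median gene's 95% interval, unadjusted for the number of genes, reached 0.47 to either side of its difference with the term and 0.42 without. Smaller differences could not be told from 0 for such a gene. Being called over 22180 genes takes a larger difference than that. With 3 arrays against 3, an exact two-sided permutation test of a single gene cannot go below 0.1.

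The 12 genes with the lowest p in each direction were chosen for their difference, so their values are a description. The pool they come from held 147 higher and 177 lower genes that had an unadjusted p under 0.05 in both fits and no overlap between the groups. Over all genes, 4% had every transgenic array above every wild-type array and 5.36% had every transgenic array below. Prickle3, of the Prickle family of planar cell polarity proteins, led the higher genes at 5.47, 5.61 and 5.56 in wild type against 6.18, 5.79 and 6.15 in transgenic bone. Its difference was 0.72 with the term (SE 0.14, adjusted p = 0.711) and 0.50 without. Slc2a13, a myo-inositol transporter, was at 4.77, 4.47 and 4.48 against 5.35, 5.38 and 5.52, a difference of 1.05 with the term and 0.84 without. In both genes the lowest transgenic array stood clear of the highest wild-type array, by more in Slc2a13.

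Tnfrsf1b, the second receptor for tumour necrosis factor, was at 6.91, 7.31 and 7.05 against 7.80, 7.39 and 7.35, with transgenic replicate 1 the highest. Its difference was 0.69 with the term and 0.42 without. Treml4, a myeloid cell surface receptor, was at 6.04, 6.14 and 5.78 against 6.77, 6.24 and 6.95, a difference of 0.69 and 0.66. The gap between the groups was narrow in both genes. The other higher genes were Zmynd15 (0.90 and 0.78), Nfkbil1, an NF-kappa-B inhibitor-like protein (0.74 and 0.63), Mutyh, an adenine glycosylase of DNA repair (0.84 and 0.53), Renbp, the renin-binding protein (0.82 and 0.56), Trim46 (0.67 and 0.49), Shisal1 (1.06 and 0.83) and Msmb, beta-microseminoprotein (0.52 and 0.36), beside Hsd11b2. Msmb was below the array medians on all 6 arrays, and Shisal1 was below them on every wild-type array.

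Gem, a small GTPase that restrains voltage-gated calcium channels, led the lower genes at 4.05, 4.34 and 4.70 in wild type against 3.06, 3.89 and 3.41 in transgenic bone. Its difference was -1.14 with the term (SE 0.22, adjusted p = 0.711) and -0.91 without. Epn3, an epsin of endocytosis, was at 2.43, 2.503 and 2.38 against 1.42, 1.77 and 1.76, a difference of -0.89 and -0.79. Epn3 had the smallest wild-type SD of the 12 lower genes, but its signal on all 6 arrays was below the array medians, and no detection call was available. Gprc5d, an orphan receptor known from plasma cells and hard keratin tissues, was at 1.73, 2.15 and 2.30 against 1.31, 1.53 and 1.33 (-0.69 and -0.67). Hes3, a repressor of the Hes family, was at 1.90, 2.64 and 2.24 against 1.39, 1.44 and 1.38 (-0.87 and -0.86). Both were below the array medians on all 6 arrays, as was Zfp850 (-0.95 and -0.68).

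Brighter genes among the lower 12 were Naa25, a subunit of an N-terminal acetyltransferase, at 7.03, 7.49 and 7.33 against 6.95, 6.97 and 6.90 (-0.54 and -0.34), and Esf1, a nucleolar protein of ribosomal RNA processing, at 6.21, 6.65 and 6.54 against 6.01, 6.17 and 5.94 (-0.52 and -0.43). In both, wild-type replicate 1 came close to the transgenic arrays. Atp5c1, the gamma subunit of mitochondrial ATP synthase, was at 5.92, 5.17 and 5.68 against 4.97, 4.92 and 5.10 (-0.77 and -0.60). Tpst1, which sulfates tyrosines of secreted proteins, differed by -0.86 and -0.57, Dpf3, a subunit of the BAF chromatin complex, by -1.05 and -0.64, Bex1 by -1.33 and -0.88, and Tas1r3, a shared subunit of the sweet and umami taste receptors, by -1.07 and -0.94. Bex1 was not among the brighter genes, with a signal below the array medians on every array except wild-type replicate 1. None of these 24 genes reached an adjusted p below 0.709 in either fit.

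**Figure D2:**
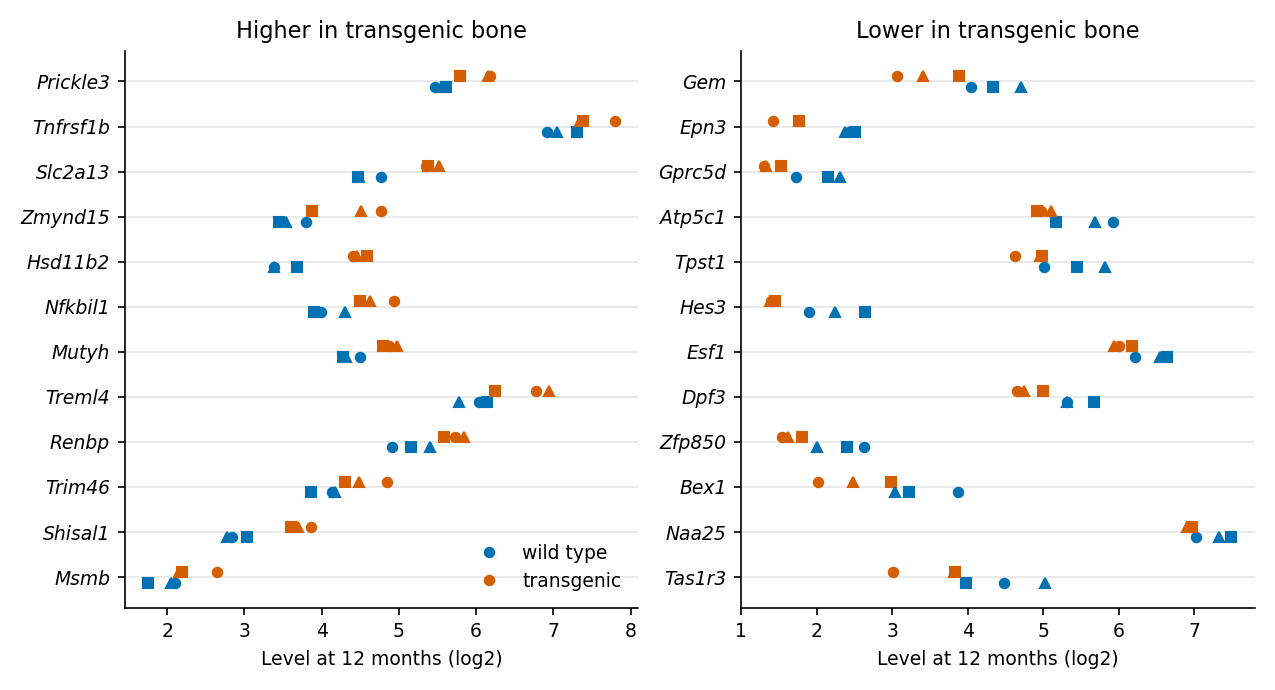
Levels (log2) on the 6 arrays of 12 months for the 12 genes of lowest p in each direction, with circles, squares and triangles for replicates 1, 2 and 3. In every row the 3 transgenic arrays lie on 1 side of the 3 wild-type arrays, which the choice of genes required.

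Glucocorticoid handling was represented by 13 measured genes, of which 0 were called. With the prefix term 3 of the 13 differences were above 0 and the median was -0.10, and without it 7 were above 0 and the median was 0.02. Over all genes 47.9% of differences were above 0 with the term and 47% without. Hsd11b1, the enzyme that regenerates active hormone, was at 5.90, 5.88 and 5.62 in wild type and at 6.14, 6.00 and 6.01 in transgenic bone, a difference of 0.25 in both fits. Its groups did not overlap, by a gap smaller than the spread within wild type. Nr3c1, the glucocorticoid receptor, was at 7.59, 7.45 and 7.70 against 7.37, 7.43 and 7.63 (-0.16 with the term and -0.10 without). Nr3c2, the mineralocorticoid receptor, which binds the same hormone, differed by -0.17 and -0.21, with overlapping arrays and a value near 0 once the muscle list mean was a covariate. Hsp90aa1, a chaperone of the receptor, was at 6.30, 6.35 and 6.15 against 6.03, 6.04 and 6.12 (-0.37 and -0.21), and Fkbp5, a co-chaperone that the receptor itself induces, differed by 0.06 and -0.08. Apart from Hsd11b2, the handling genes lay between -0.60 and 0.25 with the term. The chaperones Stip1 (-0.23 and 0.02) and Fkbp4 (-0.10 and 0.09), H6pd, which feeds cofactor to the type 1 enzyme (-0.03 and 0.02), Serpina6, the carrier of the hormone in blood (-0.10 and 0.04), and the exporter Abcb1a (-0.02 and 0.11) turned direction between the fits.

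Glucocorticoid response genes, known to be induced through the receptor in many cells, showed no called member among 24 measured. With the term 14 differences were above 0 (median 0.05), and without it 18 were (median 0.09). Receptor binding at such genes is read from the DNA beside them, where the palindrome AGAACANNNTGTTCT is the textbook full site, searched on both strands, and ACANNNTGT is its core, which lies inside every full site. Of 20 response genes with a promoter in the RefSeq table (GRCm38.p6), taken as the 250 bases before the start, 1 held the full site (5%), against 3 of 27025 promoters in all (0.0111%). The core was present in 4 of the 20 (20%) and in 6.76% of all promoters. It was also in 2 of 16 osteocyte promoters (12.5%) and 1 of 12 osteoblast promoters (8.33%). The half-site AGAACA went the other way, in 3 of the 20 response promoters (15%) and in 18.2% of all. These shares were not tested. The promoter of Sgk1 (chr10:21993640-21993889, plus strand), a kinase of salt and cell survival signalling, held the full site, and that of Lcn2 (chr2:32387740-32387989, minus strand), lipocalin 2, held only the core. Both are shown 5′ to 3′ because they carry the letters through which the pathway under test is known to act, with the match in capitals.
Sgk1: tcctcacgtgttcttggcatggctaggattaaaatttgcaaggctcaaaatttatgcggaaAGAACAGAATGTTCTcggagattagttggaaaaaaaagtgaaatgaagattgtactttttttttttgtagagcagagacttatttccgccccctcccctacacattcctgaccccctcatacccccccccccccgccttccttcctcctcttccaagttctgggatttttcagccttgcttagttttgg
Lcn2: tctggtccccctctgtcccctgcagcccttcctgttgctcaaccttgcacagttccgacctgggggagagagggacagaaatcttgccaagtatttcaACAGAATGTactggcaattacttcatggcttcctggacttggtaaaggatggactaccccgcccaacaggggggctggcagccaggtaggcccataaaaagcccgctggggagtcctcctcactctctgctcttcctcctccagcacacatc
The match in Sgk1 begins 189 bases before the start, and it describes letters in this window only. Sgk1 was at 5.31, 5.21 and 5.74 in wild type and at 5.34, 5.73 and 5.69 in transgenic bone, a difference of -0.0049 with the term and 0.17 without. Lcn2 was at 11.16, 11.29 and 10.92 against 11.25, 11.32 and 11.25 (0.20 and 0.15). Both genes overlapped between the groups. Txnip, an inhibitor of thioredoxin with a core match as well, differed by 0.28 and 0.21, also with overlapping arrays. Klf15, a transcription factor that the hormone induces, was at 3.88, 3.50 and 3.59 against 3.22, 4.56 and 3.74, and turned from -0.47 with the term to 0.18 without. The response genes with the lowest p were Sesn1, a sestrin of stress signalling, at 7.15, 7.34 and 7.32 against 7.05, 6.88 and 7.03 (-0.36 and -0.29), and Angptl4, an inhibitor of lipoprotein lipase, at 5.37, 5.57 and 5.44 against 6.14, 5.26 and 6.58 (0.89 and 0.53). Angptl4 was higher than every wild-type array on transgenic replicates 1 and 3 and lower than every one on replicate 2. Bcl6, a transcriptional repressor, was named after its values were seen. It lay above on all 3 transgenic arrays, at 7.24, 7.40 and 7.48 against 7.05, 6.90 and 7.18 (0.25 and 0.33). Among the 24 response genes, 1 had all transgenic arrays above and 1 had all below, beside 4% and 5.36% of all genes.

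Genes of the bone matrix and its cells mostly had differences above 0, by amounts that did not pass for any single gene. The members of a list were measured on the same arrays and were not taken as independent. Collagens and the enzymes of their assembly had 23 of 25 measured members above 0 with the prefix term (median difference 0.51) and 24 of 25 without (median 0.28), beside 47.9% and 47% of all genes. The mean over the list was 7.41, 7.02 and 7.79 on the wild-type arrays and 7.82, 7.40 and 7.97 on the transgenic arrays. These list means overlapped, with wild-type replicate 2 the lowest of the 6 and wild-type replicate 3 above transgenic replicate 2. The mean difference of the list was 0.51 with the term and 0.32 without. It was 0.32 and 0.13 without wild-type replicate 2, and within HEN679 it was 0.41. In whole bone, more cells of a type and more RNA per cell cannot be told apart.

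The groups did not overlap in 5 of the 25 members of the collagen list, all 5 with the transgenic arrays above, beside 4% of all genes. Col11a2, a fibrillar collagen chain, was at 5.99, 5.66 and 6.62 in wild type against 6.93, 6.63 and 6.95 in transgenic bone, a difference of 1.18 with the term (SE 0.51, adjusted p = 0.853) and 0.75 without. Col8a1, a network-forming collagen, was at 6.53, 7.39 and 7.48 against 7.57, 7.80 and 7.79 (1.06 and 0.59), and wild-type replicate 1 stood well below the others. Loxl1, a lysyl oxidase that cross-links elastin and collagen, was at 7.19, 7.33 and 7.08 against 7.40, 7.35 and 7.55 (0.58 and 0.24). Col6a1 and Col6a2, beaded-filament collagen chains named after their values were seen, differed by 0.65 and 0.52 and by 0.65 and 0.62. Plod2, a lysyl hydroxylase of collagen, overlapped and differed by 0.80 and 0.25.

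Osteoblast genes had 13 of 14 members above 0 with the term (median 0.62) and 11 without (median 0.28), and none of them separated the groups. With the term, 3 members were higher and 1 lower at an unadjusted p under 0.05, and without it none was, beside 2.74% and 2.96% of all genes with the term and 1.66% and 2.15% without. Ibsp, bone sialoprotein, was at 10.24, 10.03 and 10.46 in wild type and at 10.88, 10.27 and 10.78 in transgenic bone (0.93 and 0.40). Alpl, the alkaline phosphatase of mineralization, was at 7.93, 7.75 and 8.61 against 8.68, 8.23 and 8.58 (0.88 and 0.40), and Ifitm5, a membrane protein of mineralizing osteoblasts, differed by 0.96 and 0.35. Transgenic replicate 2 lay inside the wild-type range in all 3 of these genes. Col1a1, the main collagen of bone, named after its values were seen, was at 11.83, 11.16 and 12.04 against 12.15, 11.70 and 12.17 (0.60 and 0.33), so the defining matrix gene of bone was bright on all 6 arrays. Tnn, tenascin W, went the other way at 5.06, 3.81 and 6.32 against 3.51, 4.84 and 5.19 (-1.63 and -0.55). The list mean was 7.33, 6.83 and 7.69 on the wild-type arrays and 7.59, 7.23 and 7.67 on the transgenic arrays. Transgenic replicate 2 lay below the wild-type mean of 7.28. The list's mean difference was 0.49 with the term and 0.22 without, and without wild-type replicate 2 the latter was -0.01.

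The prefix moved with these bone lists. Over the osteoblast list HEN513 arrays stood 0.42 lower than HEN679 arrays in the fit, and over the collagen list 0.28 lower, so the term raised both differences. Skeletal muscle genes moved with the arrays as well, at list means of 9.05, 6.27 and 9.72 in wild type and 7.57, 9.52 and 8.93 in transgenic bone. With that list mean as a covariate, the mean difference was 0.57 over the collagen list and 0.55 over the osteoblast list.

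Osteocyte genes had 15 of 17 members above 0 with the term (median 0.30) and 14 without (median 0.16). Sost, which encodes the Wnt inhibitor sclerostin, was at 7.03, 6.51 and 6.20 in wild type against 7.53, 7.23 and 7.61 in transgenic bone. All transgenic arrays lay above all wild-type arrays, with a difference of 1.01 with the term (SE 0.37, 95% interval 0.23 to 1.80, adjusted p = 0.853) and 0.88 without (interval -0.18 to 1.93). Phex, an endopeptidase of phosphate handling, was at 8.18, 7.79 and 8.18 against 8.62, 8.14 and 8.74 (0.98 and 0.45). Mepe, a matrix phosphoglycoprotein, differed by 0.89 and 0.70, and Cd44, a hyaluronan receptor, by 0.30 and 0.16 without overlap.

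Wnt signalling drives bone formation, and its ligands, antagonists and targets had 22 of 26 members above 0 in either fit (medians 0.36 and 0.21). Sost counts here too, and the other antagonists went both ways. Sfrp4, a secreted Wnt-binding protein, was at 5.58, 5.87 and 6.14 in wild type against 6.33, 6.14 and 6.32 in transgenic bone, with the groups apart by less than 0.01 (0.72 and 0.40). Dkk2, a ligand of the Wnt co-receptor, was at 2.98, 3.37 and 3.22 against 2.76, 2.64 and 2.91 (-0.75 and -0.42). It lay below the array medians on all 6 arrays. Of the 26 members, 5 had all transgenic arrays above and 1, Dkk2, had all below, beside 4% and 5.36% of all genes. Nkd2, an intracellular inhibitor, differed by 0.94 and 0.68 with overlap, and Ctnnb1, the transcriptional effector beta-catenin, by 0.34 and 0.16 without overlap.

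The growth factors of the BMP, TGF-beta and IGF families had 25 of 28 members above 0 with the term (median 0.23) and 28 of 28 without (median 0.14). Smad6, an inhibitor of BMP signalling, was at 5.002, 4.80 and 5.19 in wild type against 5.74, 5.29 and 5.39 in transgenic bone, the 1 member of 28 without overlap, a share near the 4% of all genes (0.84 and 0.48, adjusted p = 0.853 with the term). Bmp7, a ligand, differed by 0.77 and 0.38, Tgfbr2, a receptor, by 0.48 and 0.20, and Ltbp1, which holds latent TGF-beta in the matrix, by 0.48 and 0.37.

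**Figure D3:**
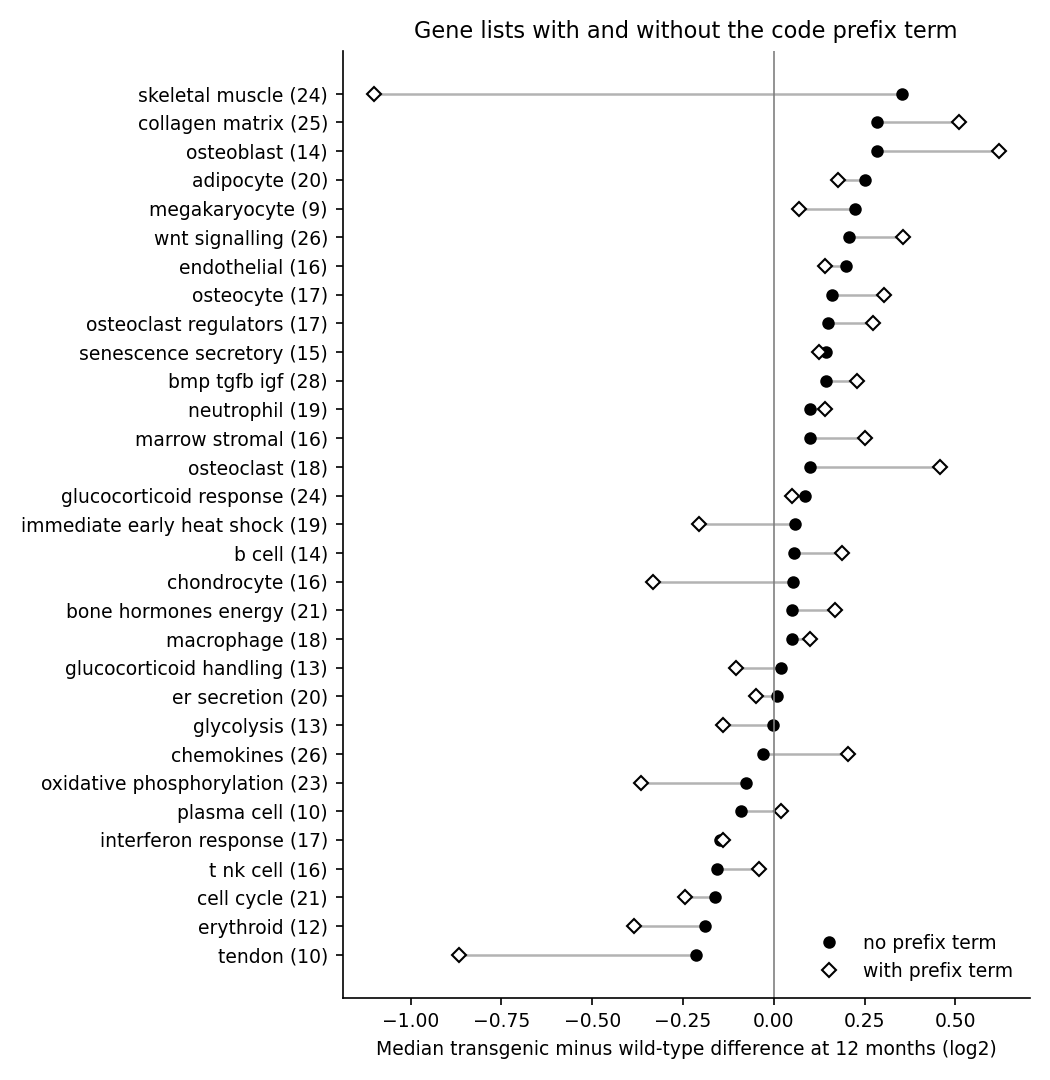
Median difference over each gene list (log2, transgenic minus wild type at 12 months), with the number of measured genes in parentheses, without the prefix term (filled circles) and with it (open diamonds). The skeletal muscle list moves from 0.35 to -1.10, and the collagen list from 0.28 to 0.51.

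Osteoclast genes depended on the term, with 17 of 18 members above 0 with it (median 0.46) and 13 without (median 0.10). Tcirg1, a subunit of the proton pump, was at 7.58, 7.81 and 7.65 in wild type and 7.89, 7.76 and 7.95 in transgenic bone (0.44 and 0.19), and Atp6v0d2, another pump subunit, differed by 0.74 and 0.43. Mmp9, a gelatinase, differed by 0.48 and 0.19, and Acp5, tartrate-resistant acid phosphatase, was at 9.39, 10.05 and 9.87 against 10.16, 9.36 and 10.14 (0.52 and 0.12). The arrays of these genes overlapped, and Acp5 was lowest on transgenic replicate 2. The list mean was 6.78, 7.34 and 6.93 in wild type and 7.18, 6.81 and 7.27 in transgenic bone. Transgenic replicate 2 lay below the wild-type mean of 7.01. The signals that raise or restrain osteoclasts had 13 of 17 members above 0 in either fit (medians 0.27 and 0.15).

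Ccl9, a chemokine made by osteoclasts and myeloid cells, had the lowest p of its list. It was at 7.38, 7.28 and 7.53 in wild type and at 8.41, 7.52 and 8.15 in transgenic bone, so transgenic replicate 2 lay inside the wild-type range. The difference was 1.05 with the term (SE 0.21, adjusted p = 0.711) and 0.63 without. Csf1, a growth factor of osteoclast precursors, differed by 0.66 and 0.22, its receptor Csf1r by 0.68 and 0.25, and Il1b, interleukin 1 beta, by 0.48 and 0.35. Tnfsf11, the ligand RANKL that starts osteoclast formation, named after its values were seen, was at 3.85, 3.96 and 3.58 against 4.15, 3.64 and 4.29 (0.47 and 0.23).

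Skeletal muscle genes turned direction with the prefix term. All 24 differences were below 0 with the term (median -1.10), and 23 of 24 were above 0 without it (median 0.35). Over this list HEN513 arrays stood 2.20 higher than HEN679 arrays in the fit, so the term lowered the difference. Wild-type replicate 2 and transgenic replicate 1 were the lowest arrays of their groups, at list means of 6.27 and 7.57, and the other 4 lay between 8.93 and 9.72. No muscle gene was called in either fit, and the lowest value of any of the 24 on these arrays was 3.13. Mb, myoglobin, was at 8.18, 5.52 and 8.70 in wild type and at 6.13, 8.68 and 7.76 in transgenic bone (-1.50 and 0.06), and Tnnt1, slow troponin T, differed by -1.48 and -0.10. Without wild-type replicate 2 the mean difference of the list was -2.18 with the term and -0.71 without.

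Tendon genes had 0 of 10 differences above 0 with the term (median -0.87) and 2 without (median -0.21). HEN513 arrays stood 0.95 higher than HEN679 arrays over the tendon list in the fit. Tnmd, tenomodulin, named after its values were seen, was at 4.58, 3.96 and 5.36 against 3.68, 4.27 and 4.62 (-0.87 and -0.45), and Cilp2, a cartilage matrix protein of the tendon list, differed by -0.86 and -0.38. Cartilage genes had 4 of 16 above 0 with the term (median -0.33) and 9 without (median 0.05). Matn4, matrilin 4, was the cartilage gene with every transgenic array below, at 2.84, 2.95 and 2.57 against 2.28, 2.00 and 2.37 (-0.56 and -0.57). Its signal was below the array medians throughout. Of the 16 cartilage genes, 1 had every transgenic array above and 1 had every one below, beside 4% and 5.36% of all genes. The part of attached muscle and tendon in the bone results was not tested beyond the covariate fit given above.

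**Figure D4:**
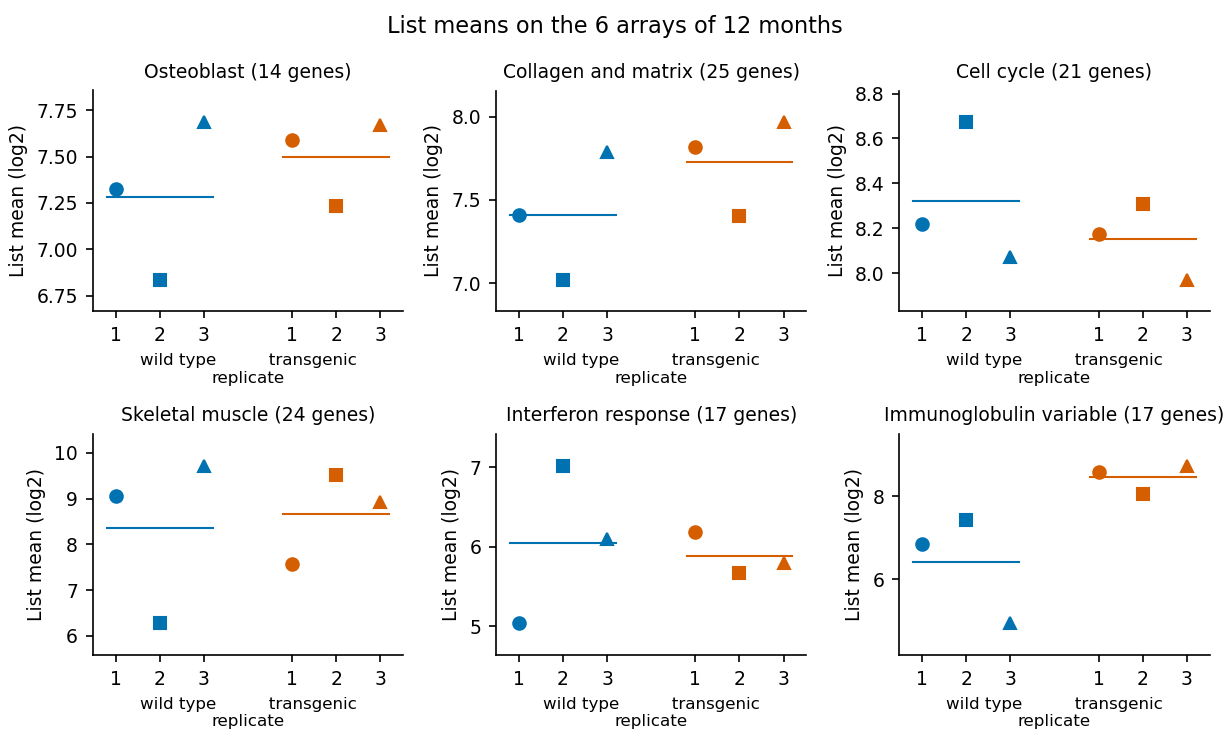
Mean level of 6 gene lists (log2) on each array of 12 months, with replicates 1 to 3 of wild type on the left and of transgenic bone on the right, and lines for the group means. The skeletal muscle mean is lowest on wild-type replicate 2 at 6.27, and the immunoglobulin mean is lowest on wild-type replicate 3 at 4.93.

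Immunoglobulin variable genes, which encode the antigen-binding parts of antibodies, had the largest median difference of the gene groups described here. This group of 17 genes was formed by name after the data were seen. Its members may share probe signal, which was not tested, so they were not taken as independent. With the term 16 of 17 differences were above 0 (median 2.33) and without it all 17 were (median 2.09), and 12 of 17 had all transgenic arrays above all wild-type arrays, beside 4% of all genes. The group mean was 6.85, 7.43 and 4.93 in wild type and 8.59, 8.07 and 8.74 in transgenic bone. Wild-type replicate 3 was the lowest array, and without it the mean difference was 1.19 in place of 1.93 with the term and 1.33 in place of 2.07 without. At the other ages the wild-type and transgenic means were 5.68 and 6.07 at 3 months, 7.26 and 7.46 at 6 months, and 8.14 and 8.71 at 18 months, so the 12-month wild-type mean of 6.40 was below those at 6 and 18 months.

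Plasma cell genes as a list did not follow, with 6 of 10 members above 0 with the term (median 0.02) and 4 without (median -0.09). Jchain, which joins antibody units into polymers, was at 9.18, 8.67 and 6.28 in wild type and at 9.60, 9.74 and 9.98 in transgenic bone, with wild-type replicate 3 again far below. Its difference was 1.98 with the term (SE 0.59, adjusted p = 0.819) and 1.73 without, and without wild-type replicate 3 it was 1.09 and 0.85. Ighg3, an antibody constant region, differed by 0.82 and 1.36 with overlapping arrays in its brighter row, and by 2.64 and 1.59 in its other row. Ighm, the constant region of IgM, named after its values were seen, was at 12.23, 11.84 and 12.98 against 12.10, 12.22 and 11.74 (-0.36 and -0.33), highest on the same wild-type replicate 3, and a mean over all its rows turned the difference to 0.92. B cell genes had 11 of 14 above 0 with the term (median 0.19) and 8 without (median 0.06), and without wild-type replicate 2 their mean difference turned from 0.24 to -0.03 with the term and from 0.05 to -0.22 without.

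Among other blood cells, neutrophil genes had 18 of 19 members above 0 with the term (median 0.14) and 16 without (median 0.10). Csf3r, the receptor for the granulocyte growth factor, was at 9.05, 9.24 and 8.74 in wild type against 9.46, 9.67 and 9.48 in transgenic bone, without overlap (0.66 and 0.53). Itgb2l, a beta integrin of neutrophils, differed by 0.81 and 0.32. Erythroid genes had 0 of 12 above 0 in either fit (medians -0.38 and -0.19), with Tfrc, the transferrin receptor, at -0.40 and -0.23 and Car1, a red cell carbonic anhydrase, at -0.40 and -0.36. The erythroid mean difference without wild-type replicate 2, the highest array of that list, was -0.10 with the term and 0.07 without. Megakaryocyte genes had 7 of 9 above 0 with the term (median 0.07) and all 9 without (median 0.22), with Thbs1, thrombospondin 1, at 9.50, 9.51 and 9.29 against 10.005, 9.56 and 9.68 (0.55 and 0.31).

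Macrophage genes had 14 of 18 members above 0 with the term (median 0.10) and 11 without (median 0.05). Without wild-type replicate 1 the list's mean difference turned from 0.24 to -0.04 with the term and from 0.14 to -0.14 without. Cd14, a lipopolysaccharide co-receptor, was at 4.57, 5.02 and 5.19 in wild type and at 5.99, 5.63 and 5.22 in transgenic bone, each above the wild-type range (0.77 and 0.69). Cx3cr1, the fractalkine receptor, was at 5.25, 5.77 and 5.98 against 7.07, 5.47 and 6.40 (1.22 and 0.65), and Ccr2, the receptor of inflammatory monocytes, differed by 0.53 and 0.22. Transgenic replicate 1 was the highest array for Cd14 and Cx3cr1. Chemokine genes had 16 of 26 above 0 with the term (median 0.21) and 12 without (median -0.03), with Ccl6 at 0.57 and 0.38 and Ccl7 at 0.63 and 0.43. T and natural killer cell genes had 8 of 16 above 0 with the term (median -0.04) and 6 without (median -0.16), and Cd4, the helper T cell co-receptor, differed by 0.74 and 0.52.

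Interferon response genes turned direction with 1 array. Their list mean was 5.04, 7.02 and 6.10 in wild type against 6.18, 5.67 and 5.79 in transgenic bone, with both the lowest and the highest array in wild type. With the term 6 of 17 differences were above 0 (median -0.14) and without it 4 were (median -0.15). Without wild-type replicate 2 the mean difference turned from -0.18 to 0.30 with the term, and from -0.17 to 0.32 without. Ifit3, an antiviral effector, differed by -0.58 and -0.59, and Gbp3, a guanylate-binding protein, was at 4.03, 6.46 and 5.67 against 4.55, 4.79 and 4.65 (-0.82 and -0.73).

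Energy metabolism genes lay lower with the term than without. Subunits of the respiratory chain had 1 of 23 differences above 0 with it (median -0.36) and 2 without (median -0.08). At an unadjusted p under 0.05, 9 of the 23 were lower with the term and 2 without, Atp5c1 above among them, beside 2.96% and 2.15% of all genes. Cycs, cytochrome c, was at 8.98, 8.75 and 9.11 in wild type and at 8.71, 9.06 and 8.82 in transgenic bone (-0.49 and -0.08), and Ndufb5, a complex I subunit, differed by -0.43 and -0.02. A fit that also held the muscle list mean gave a mean difference of -0.28 over this list, against -0.39 in the fit with the term alone. Glycolysis genes had 3 of 13 above 0 with the term (median -0.14) and 6 without (median -0.0021).

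Genes of dividing cells had 0 of 21 differences above 0 with the term (median -0.25) and 1 of 21 without (median -0.16). The list mean was 8.22, 8.67 and 8.07 in wild type and 8.17, 8.31 and 7.97 in transgenic bone, and the arrays overlapped. Mcm6, a helicase subunit of DNA replication, was at 8.99, 9.23 and 8.77 against 8.70, 8.75 and 8.60, with every transgenic array below (-0.38 and -0.31). Bub1, a mitotic checkpoint kinase, was at 6.54, 6.57 and 6.16 against 6.18, 6.16 and 6.02 (-0.43 and -0.30). Without wild-type replicate 2, the highest array of the list, the mean difference was -0.06 in place of -0.23 with the term and turned from -0.17 to 0.0044 without it.

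Fat, hormone and energy genes bear on the leptin and obesity named in the title. Adipocyte genes had 12 of 20 members above 0 with the term (median 0.18) and 17 without (median 0.25). The list's mean difference rested on transgenic replicate 3, without which it turned from 0.07 to -0.11 with the term and from 0.25 to -0.04 without, and within HEN679 it was -0.05. Adipoq, the fat hormone adiponectin, was at 6.77, 6.91 and 6.53 in wild type against 7.16, 7.04 and 7.54 in transgenic bone (0.50 and 0.51), and Dgat2, an enzyme of triglyceride synthesis, was at 6.56, 6.71 and 6.91 against 7.18, 7.06 and 7.66 (0.43 and 0.58). Pparg, the master regulator of fat cells, named after its values were seen, was at 6.34, 6.41 and 6.49 against 6.74, 6.49 and 7.31 (0.41 and 0.44). In all 3 genes every transgenic array was above every wild-type array and transgenic replicate 3 was the highest. The adipocyte list held 3 such members of 20 and 0 with every transgenic array below, beside 4% and 5.36% of all genes. With the term 8 of the 20 differences were below 0. Lep, the leptin gene, also named after its values were seen, was at 1.87, 3.16 and 1.51 against 1.49, 1.63 and 3.12 (-0.56 and -0.10), low and overlapping. Lepr, the leptin receptor, which marks marrow stroma, differed by 0.48 and 0.25.

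Hormones of bone and fat and the receptors of energy hormones had 15 of 21 members above 0 with the term (median 0.17) and 14 without (median 0.05). Vdr, the vitamin D receptor, was at 6.17, 6.49 and 6.08 in wild type and at 7.11, 6.93 and 6.71 in transgenic bone. Its arrays did not overlap, and its difference was 1.33 with the term (SE 0.37, 95% interval 0.56 to 2.10, adjusted p = 0.819) and 0.67 without (interval -0.29 to 1.63). Mc4r, the melanocortin receptor of appetite, was at 2.04, 2.15 and 1.77 against 1.60, 1.51 and 1.23 (-0.52 and -0.54), below the array medians throughout. Irs1, an adaptor of the insulin receptor, named after its values were seen, differed by 0.45 and 0.48 without overlap.

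Marrow stromal genes had 13 of 16 above 0 with the term (median 0.25) and 15 without (median 0.10), with Pdgfra, a growth factor receptor of mesenchymal cells, at 7.53, 7.49 and 7.56 against 8.05, 7.51 and 8.003 (0.78 and 0.33). Endothelial genes had 14 of 16 above 0 with the term (median 0.14) and all 16 without (median 0.20). Sox18, a vessel transcription factor, was at 5.68, 6.02 and 5.58 against 6.18, 6.12 and 6.59 (0.46 and 0.54), and Pecam1, an adhesion protein of endothelium, differed by 0.20 and 0.17, both without overlap. Senescence and secretory factors had 12 of 15 above 0 with the term (median 0.12) and 10 without (median 0.14), and Igfbp7 was at 9.05, 9.24 and 8.93 against 9.69, 9.39 and 9.69 (0.88 and 0.52). Immediate early and heat shock genes had 8 of 19 above 0 with the term (median -0.21) and 10 without (median 0.06), with Hsph1, a heat shock protein, at -0.64 and -0.25 and Ier3 at 0.66 and 0.46. Protein folding and export genes had 8 of 20 above 0 with the term (median -0.05) and 11 without (median 0.01).

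Leaving out a single array turned the mean difference of 12 of the 31 lists with the term and of 19 without it. In 6 lists the same array turned both fits, namely those of interferon response, B cell, plasma cell, macrophage, adipocyte and protein folding genes. The plasma cell mean turned from 0.19 to -0.03 with the term and from 0.21 to -0.01 without when wild-type replicate 2 was left out. The 10 lists that kept their direction in both fits, whichever array was left out, were those of collagen, osteocyte, osteoclast regulator, Wnt, BMP, TGF-beta and IGF, marrow stromal, neutrophil, endothelial, respiratory chain and hormone genes.

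Whether the genotype difference at 12 months stood apart from the mean of those at 3, 6 and 18 months was tested gene by gene with limma. With the term 0 genes were called (lowest adjusted p 0.884), and 5.41% of genes had an unadjusted p under 0.05. Without the term 806 genes passed that unadjusted threshold and the lowest adjusted p was 0.913. For the genes above the contrast was 1.75 for Vdr with the term and 1.18 without, 1.07 and 1.08 for Sost, 0.88 and 0.48 for Ccl9, and 1.82 and 1.53 for Jchain, with adjusted p of 0.884 to 0.893 in the fit with the term. None of these was shown to be particular to 12 months.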

How the data were processed

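The deposited table holds log2 values, 1 column per array, as the authors made them; the log base was inferred from its range of 0.092 to 13.7. Per the submitters' processing notes MAS5 was used, with no version stated, with other steps not given in the sources used here. No detection call was used, and 3 arrays a group limit the precision. Of 41034 rows, 23521 carry 1 symbol, 1814 several and 15699 none in the platform annotation. Where a symbol had several rows (1082 genes) the row with the highest mean was used, leaving 22180 genes. Names were matched to RefSeq (GRCm38.p6) for 23328 rows, and 0 changed.

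Limma 3.58.1 in R 4.3.3 (lmFit, eBayes) fitted 8 groups and the code prefix over all 24 arrays, with 14 residual degrees of freedom, or 16 without the prefix. Two-sided p-values were adjusted over all genes by Benjamini-Hochberg, and the fit was tested on simulated data. They reflect only the spread among these arrays, part of which may be technical. Members, 31 lists (521 of 570 genes measured) and alternatives were chosen with earlier results of these data known. Named were Hsd11b2 and its handling list, the 12 genes of lowest p per direction (unadjusted p under 0.05 in both fits, same sign, no overlap) and up to 4 lowest-p members a list. Predicted, small RNA, olfactory and vomeronasal receptor, immunoglobulin and T cell receptor variable genes were counted, not named.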

Additional observations from a re-analysis of the deposited data

How the results depend on the processing

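The count of called genes was 0 under every alternative run except 2 that left out an array. Without wild-type replicate 1 it was 1, Gbp5 at -1.89 (limma adjusted p = 0.00169), and without wild-type replicate 2 it was 1, Mall at -1.26 (adjusted p = 0.0263); both were named after their values were seen. Leaving out each array in turn thus gave 0 to 1, also for the contrast of 12 months with the other ages. Hsd11b2 stayed between 0.90 and 1.09 over all alternatives and was never called. Same-numbered arrays deviated together at r of -0.13, -0.14 and 0.11 at 12 months. The values were 0.14, 0.08 and 0.28 at 3 months, -0.30, 0.16 and 0.15 at 6 months, and 0.29, 0.13 and 0.23 at 18 months. Whether the numbers mark pairs at 12 months cannot be told, since replicates 2 and 3 there differ in prefix between genotypes. With a replicate block 0 genes were called and Hsd11b2 differed by 1.01. Of 3154 values under alternatives of the genes that the naming rule covers or the text names, 94 turned direction. With the replicate block these were Mepe (-0.056), Lepr (-0.11), Tfrc (0.012), Gbp3 (0.52), Sgk1 (0.036), Fkbp5 (-0.23), Abcb1b (0.41), Cd36 (0.11), Tal1 (0.19), Cr2 (-0.11), Fcer2a (-0.56), Vpreb3 (-0.70), Prf1 (0.015), Il7r (-0.43), Gbp7 (0.80), Hspa8 (0.027), Top2a (0.080) and Sdf2l1 (0.059). Without the prefix term, over all arrays or the 6 of 12 months, they were Mb (0.056), Sgk1 (0.17), Fkbp5 (-0.079), Stip1 (0.023), Fkbp4 (0.093), H6pd (0.021), Serpina6 (0.042), Abcb1a (0.115), Klf15 (0.18), Slc2a4 (0.041), Tcap (0.195), Myh7 (0.146), Clec1b (0.089) and Tpi1 (0.042). Within HEN679, on the 6 arrays with the term and without the 18-month arrays, which give the same difference by construction, they were Fkbp5 (-0.0399), Ptges3 (0.0017), Abcb1b (0.246), Abcb1a (0.226), Grem1 (-0.235), Cr2 (-0.037), Fcer2a (-0.133) and Clec1b (0.0051). With array weights Fkbp5 was -0.0081 and Abcb1a 0.036, with the muscle covariate Nr3c2 was 0.017, Sgk1 0.069, Serpina6 0.213 and Abcb1a 0.329, and with the mean over rows Ighm was 0.92. Leaving out each array in turn gave ranges across 0 for Abcb1a (-0.53 to 0.362), Clec1b (-0.335 to 0.092), Fkbp5 (-0.049 to 0.174), Gp9 (-0.114 to 0.391), H6pd (-0.129 to 0.023), Ighg3 (-0.11 to 1.40), Irf9 (-0.114 to 0.776), Serpina6 (-0.20 to 0.145) and Sgk1 (-0.108 to 0.155). The mean of 7 of 31 lists changed sign without the prefix term, of 5 with the replicate block, of 5 each without wild-type replicate 1 or 2, and of 3 without transgenic replicate 1. List means moved by more than the spread between arrays in 14 lists with the block and in 12 without transgenic replicate 1. The causes were not tested.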
